A study of Mus musculus with 12 samples.

Results

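The endoplasmic reticulum (ER) folding and secretion genes described here are a set of 37 genes chosen by name, with earlier results of these data known. They encode chaperones, protein disulfide isomerases, collagen-folding enzymes, translocation and ER-associated degradation (ERAD) factors, export and retrieval factors, and transcription factors of the unfolded protein response. All 37 symbols were found among the 35976 gene symbols of the deposited count table, and each gene was read from its most counted transcript over the 12 libraries. They were followed in P3D8 and P3E3, each a single-cell-derived clone of mouse P3 (digit tip) fibroblasts, so a difference between the lines is a difference between 2 clones. Cartilage of each line (P3D8/BMP9 and P3E3/BMP9) came from cells that aggregated in suspension with 50 ng/ml BMP2 for 4 days and were then differentiated with 50 ng/ml BMP9 for 14 days, in medium with 2% fetal bovine serum. Monolayer cells of each line at passage 6 received neither BMP and grew on fibronectin until 80% confluency, in 2% serum with EGF and PDGF (each at 10 ng/ml) and LIF (at 0.5 ng/ml). Each of the 4 groups had 3 libraries of polyadenylated RNA. Cartilage and monolayer therefore differed in BMP, growth factors, adhesion and time in culture together, and these cannot be told apart.

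Proteins destined for secretion enter the ER through the Sec61 channel, lose their signal peptide, and are folded by chaperones and oxidised by disulfide isomerases before COPII vesicles carry them to the Golgi. Resident chaperones that escape carry a KDEL-type signal and are brought back by KDEL receptors. Chondrocytes and fibroblasts secrete large amounts of collagen, whose chains need prolyl hydroxylation, prolyl isomerisation and dedicated cargo receptors. When folding load exceeds capacity, the unfolded protein response raises the transcription of folding genes, in part through short promoter elements.

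The promoters are shown first because these elements are the known sequence link between several of the genes. RefSeq promoters (GRCm38.p6, the mm10 assembly) were at hand for 31 of the 37 genes. The ER stress response element, CCAAT and CCACG separated by 9 free bases, was searched on both strands of the 250 bases before to 50 bases after each start. It was found in 0.119% of all 32851 promoters, which belong to 37 of 27025 genes. Within the set it was found in 7 of the 31 genes: Calr, Canx, Creld2, Dnajc3, Hsp90b1, Hspa5 and Pdia6. A related element, ATTGG and CCACG with 1 free base between them, was in 0.0365% of promoters (12 of 27025 genes) and in Dnajb11 and Herpud1. The element TGACGTGG was in 0.676% of promoters (193 of 27025 genes) and in Kdelr3, Sec23a and Sec24d. These shares are a description, and enrichment was not tested. No gene of the set held matches of more than 1 kind, so the matches did not overlap. Kdelr3 is shown because it had the largest change of the set in P3D8 (chr15:79516158-79516407, plus strand), and Calr because it was among the genes with the highest level per kilobase (chr8:84846932-84847181, minus strand), both as the 250 bases before the start. Shorter stretches are shown for the other measured genes with the first element, Creld2 (chr15:88819500-88819558, plus strand), Dnajc3 (chr14:118937807-118937865, plus strand), Hsp90b1 (chr10:86705523-86705666, minus strand) and Pdia6 (chr12:17266471-17266529, plus strand). Sequences run 5′ to 3′ along the gene, and capitals mark the element, which in Kdelr3, Calr and Creld2 lies on the opposite strand and in Hsp90b1 once on each.
Kdelr3: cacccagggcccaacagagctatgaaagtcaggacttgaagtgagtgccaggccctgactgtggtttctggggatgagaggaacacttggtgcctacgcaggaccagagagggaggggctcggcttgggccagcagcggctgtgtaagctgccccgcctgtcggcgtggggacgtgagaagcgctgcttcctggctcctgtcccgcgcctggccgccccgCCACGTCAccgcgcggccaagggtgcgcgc
Calr: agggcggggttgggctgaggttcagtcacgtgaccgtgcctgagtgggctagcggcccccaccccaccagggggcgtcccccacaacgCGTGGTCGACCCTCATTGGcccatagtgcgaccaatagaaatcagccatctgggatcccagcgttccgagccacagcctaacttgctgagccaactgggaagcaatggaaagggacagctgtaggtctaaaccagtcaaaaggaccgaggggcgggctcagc
Creld2: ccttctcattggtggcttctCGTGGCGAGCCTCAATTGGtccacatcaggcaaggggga
Dnajc3: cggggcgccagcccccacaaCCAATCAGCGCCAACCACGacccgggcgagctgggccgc
Hsp90b1: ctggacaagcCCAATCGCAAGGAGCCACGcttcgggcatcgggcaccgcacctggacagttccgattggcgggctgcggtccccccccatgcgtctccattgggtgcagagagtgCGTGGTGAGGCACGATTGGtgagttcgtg
Pdia6: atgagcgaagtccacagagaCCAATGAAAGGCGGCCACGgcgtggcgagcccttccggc

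Expression was read as normalized counts, that is, reads per transcript that the authors divided by 1 size factor per library. The paper states that its datasets were all normalized together, public articular and growth plate cartilage data among them. Those tissues may thus have entered the size factors. Dividing by the smallest step of each library gave back 7269748 to 8662298 whole reads per library. A transcript was tested when its mean was at least 10 over the libraries compared, and called when its adjusted p in limma on log2(normalized count + 1) was under 0.05. On this scale changes of low genes are understated. Log2 changes are given with their standard error, and the p values cover the spread between these 3 libraries per group. The labels do not say whether these were separate cultures. The paper describes 3 separate experiments for each line, in the legend on its cartilage RNA data. Of the 37 genes, 22 passed the filter and 15 did not. The 15 included 7 listed at 0 in all 12 libraries (Hspa5, Canx, Pdia5, Serpinh1, Fkbp10, Xbp1 and Sec23a) and 8 with means of at most 2.58 (Sel1l, the ERAD adaptor with the highest of them, Creld1, Hyou1, Atf6, Herpud1, Edem1, Sec24d and Ssr4). All 18 genes with 1 transcript entry in the table passed, against 4 of the 19 with several (Pdia4, P4ha3, Dnajb11 and Creb3l2). The same tendency held among all protein-coding genes, of which 39.6% with 1 entry and 11.9% with several reached the mean of 10. A listing at 0 was therefore not read as absence, and nothing is said about the expression of Hspa5, the main ER chaperone, or of Serpinh1, the collagen chaperone. For the same reason the genes most like Hspa5 could not be sought. Counts below refer to the 22 tested genes.

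All 22 tested genes were higher in cartilage than in monolayer in both clones. The set was chosen with earlier results of these data known, so these counts describe it and are no independent test. In P3D8, 22 of 22 were called higher and 0 lower, where 37.5% of the 5333 transcripts tested were called higher, and the median log2 change was 1.33 against -0.04 over all transcripts. In P3E3, 22 of 22 were called higher and 0 lower, where 41.4% of transcripts were called higher, and the median was 2.04 against 0.06. The 3 cartilage libraries lay above the 3 monolayer libraries for every tested gene in each clone, as they did for 39.3% of all transcripts in P3D8 and 42.1% in P3E3. Without P4ha3, which passed the filter only through cartilage, the count was 21 of 21 in each clone. In each clone the counts were also 22 higher and 0 lower at an unadjusted p under 0.05, with edgeR and with DESeq2. The summed reads of the 22 genes made up 1.10 to 1.21% of a library in P3D8 monolayer and 2.42 to 2.47% in P3D8/BMP9. They made up 1.09 to 1.17% in P3E3 monolayer and 2.67 to 2.97% in P3E3/BMP9. The summed share was thus at a like level in both monolayers, and P3E3/BMP9 libraries all lay above P3D8/BMP9 libraries.

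**Figure D1:**
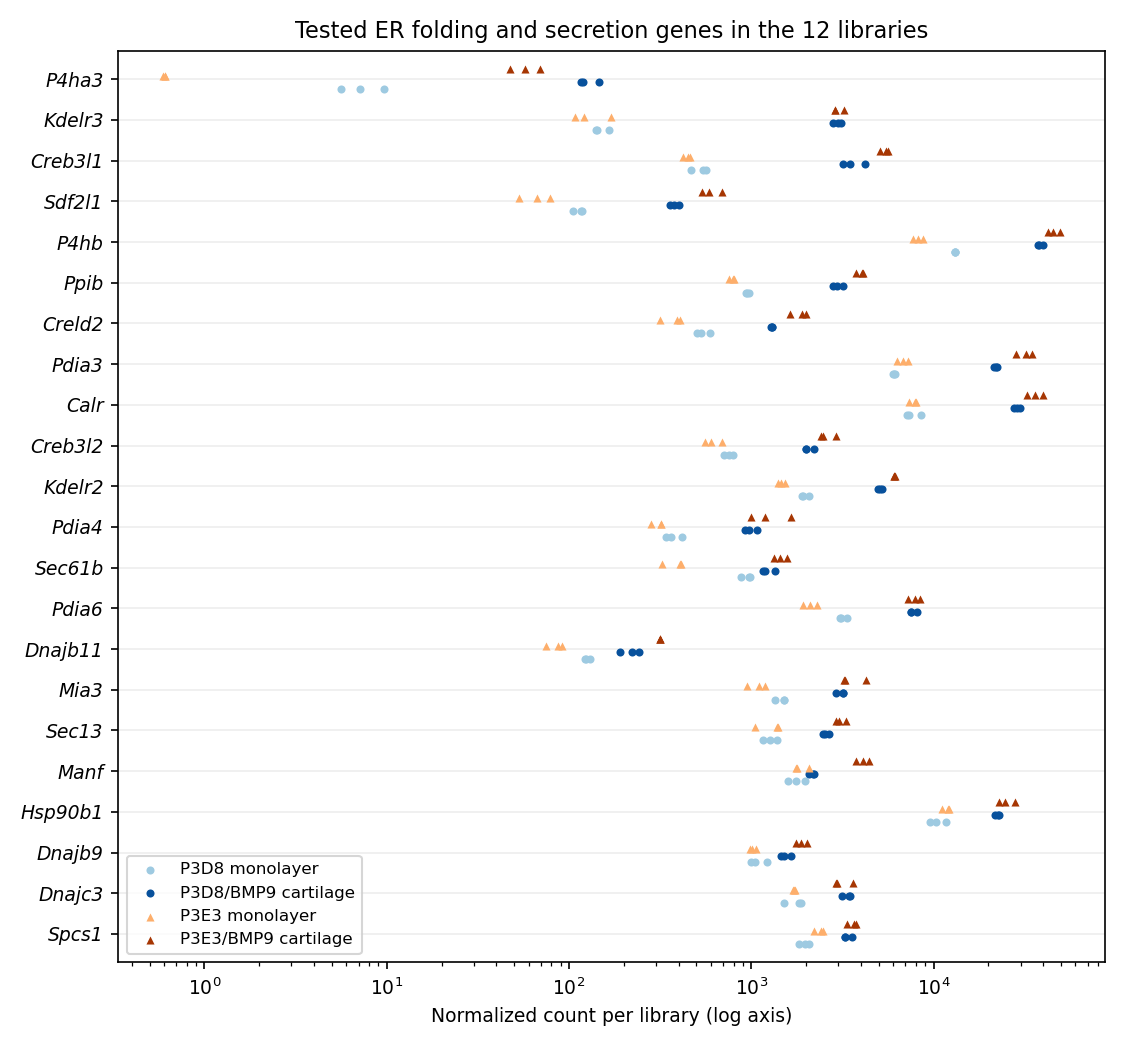
Normalized count of each tested gene in each of the 12 libraries (log axis, 1 point per library). Cartilage points (dark) lie to the right of monolayer points (light) of the same clone in all 22 genes, and P4ha3 in P3E3 monolayer stands at about 0.6, the worth of 1 read.

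These counts depended on the size factors to a degree. Cartilage libraries had a larger sum of normalized counts (about 6308470 to 7026920) than monolayer libraries (about 4427820 to 4968520), and their 10 most counted transcripts took 21.0 to 29.1% of reads against 9.86 to 13.3%. With each library scaled to its total reads instead, the median over all transcripts moved to -0.41 in P3D8 and -0.54 in P3E3, and calls over all transcripts went from 1999 higher and 2070 lower to 1534 and 2719 in P3D8, and from 2207 and 2041 to 1580 and 2914 in P3E3. Under that scaling 19 of the 22 genes were called higher in P3D8 (not Dnajb9, Manf and Sec61b) and 21 in P3E3 (not Spcs1), and 0 were called lower. In P3D8 without replicate 1 of the monolayer, Manf was no longer called and 21 of 22 were higher.

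**Figure D2:**
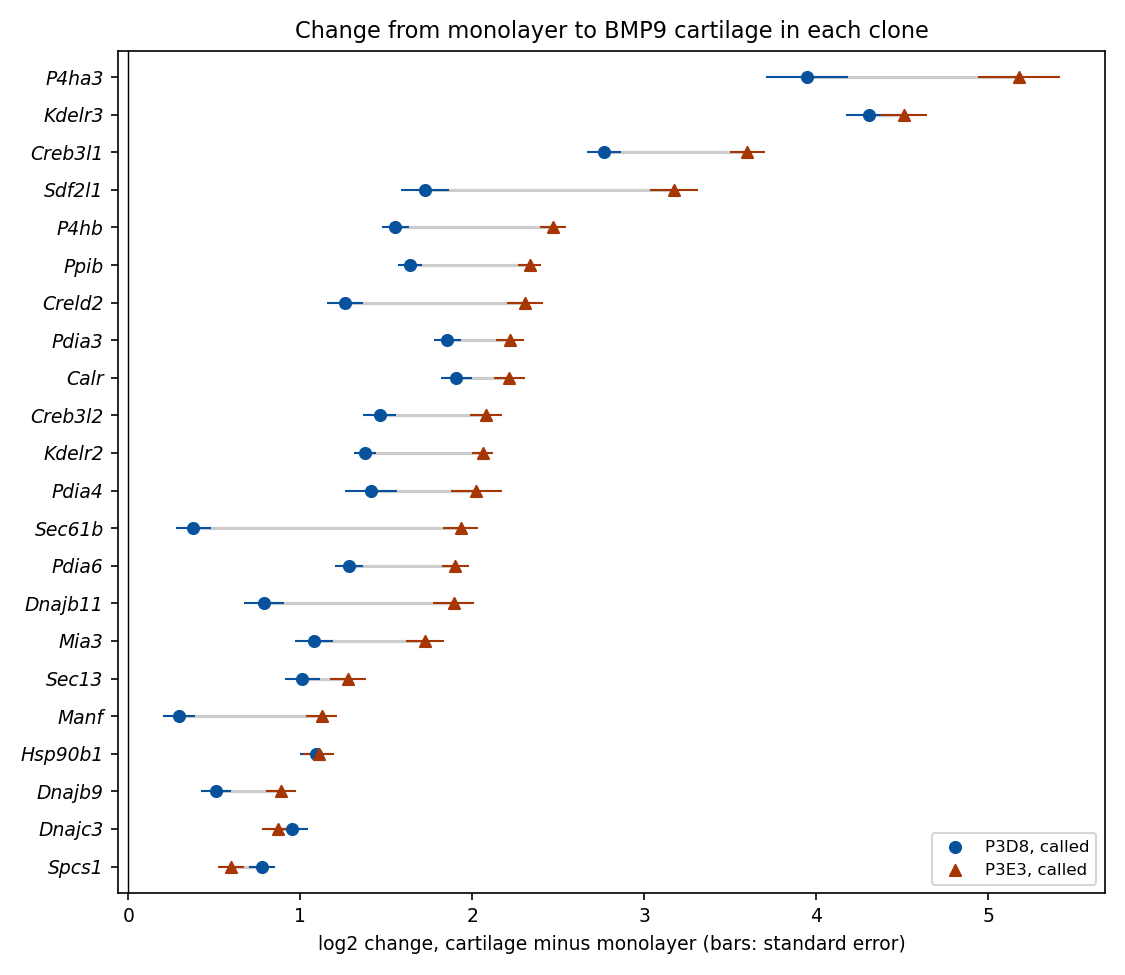
Log2 change from monolayer to cartilage of each tested gene in P3D8 (circles) and P3E3 (triangles), with standard error bars, genes ordered by the change in P3E3. All values are above 0 and called, and 20 of 22 genes lie further right in P3E3.

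The 2 measured transcription factors, Creb3l1 and Creb3l2, rose in both clones. Both are ER-membrane bZIP proteins that are released by cleavage in the Golgi, and in mice Creb3l1 is known for collagen secretion in bone and Creb3l2 for secretion in cartilage. Creb3l1 (chr2:91982328-92024170) stood at 469.7, 546 and 566 normalized counts in P3D8 monolayer and 3466, 3166 and 4193 in P3D8/BMP9. It stood at 459, 448 and 423 in P3E3 monolayer and 5454, 5078 and 5627 in P3E3/BMP9. Cartilage was far above monolayer in every library, by a log2 of 2.77 ± 0.10, adjusted p = 7.1e-12 in P3D8 and 3.60 ± 0.10, adjusted p = 2.6e-13 in P3E3. Creb3l2 went from 708, 753 and 792 to 2215, 2007 and 1990 in P3D8 (1.46 ± 0.10 log2, adjusted p = 3.8e-09). In P3E3 it went from 600.5, 554 and 689 to 2480, 2408 and 2910 (2.08 ± 0.10, adjusted p = 5.9e-11). The change of Creb3l2 was the smaller of the pair in each clone. Creb3l2 has 2 entries in the table and overlaps another annotated gene, Gm33275.

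Of the KDEL receptors, Kdelr3 had the largest change of the set in P3D8. It stood at 140.3, 142 and 166 normalized counts in P3D8 monolayer and 3086, 2817 and 3000 in P3D8/BMP9, a log2 change of 4.30 ± 0.13, adjusted p = 1.5e-12. In P3E3 it went from 120.1, 108 and 169 to 2891, 3210 and 2872, a log2 change of 4.51 ± 0.13, adjusted p = 4.8e-13. The gene (chr15:79516408-79527739) overlaps Ddx17, and the strand setting of the counting is not given in the sources used here, so reads of the overlap could not be assigned with certainty. The clones did not differ beyond their spread at Kdelr3 in either state. Kdelr2 was well counted in monolayer already, at 1923, 2073 and 1896 in P3D8 and 1538, 1448 and 1395 in P3E3. In cartilage it reached 5231, 4984 and 5073 in P3D8 (log2 change 1.38 ± 0.06, adjusted p = 7.9e-11) and 6055, 6149 and 6075 in P3E3 (log2 change 2.06 ± 0.06, adjusted p = 6.5e-13). The 2 receptors thus differed in the size of the rise, about 19.8-fold for Kdelr3 and 2.60-fold for Kdelr2 in P3D8.

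Calr and Hsp90b1 represent the large chaperones. Calr, the soluble lectin chaperone calreticulin (chr8:84842088-84846931), stood at 7374, 7127 and 8563 in P3D8 monolayer and 28837, 27645 and 29867 in P3D8/BMP9. It stood at 7980, 7950 and 7347 in P3E3 monolayer and 32610, 35850 and 39914 in P3E3/BMP9. The monolayers overlapped between the clones and the cartilages did not. The log2 change was 1.91 ± 0.09, adjusted p = 1.2e-10 in P3D8 and 2.21 ± 0.09, adjusted p = 1.7e-11 in P3E3. Hsp90b1, the ER member of the Hsp90 family, was already at 9619 to 11700 in P3D8 monolayer and 11075 to 12088 in P3E3 monolayer. It reached 21794 to 22783 and 22946 to 28135 in the cartilages, with log2 changes of 1.09 ± 0.09 (adjusted p = 5.5e-08) and 1.11 ± 0.09 (adjusted p = 3.7e-08). Its rise was of the same size in both clones within the standard errors, with a difference of -0.02 ± 0.13.

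The 3 tested disulfide isomerases rose in both clones. Pdia3, which works on glycoproteins together with calreticulin, went from 5999, 6111 and 6103 to 22074, 21578 and 22314 in P3D8 (log2 change 1.86 ± 0.08, adjusted p = 4.6e-11). In P3E3 it went from 6809, 6275 and 7216 to 28251, 31998 and 34513 (log2 change 2.22 ± 0.08, adjusted p = 4.3e-12). P3E3/BMP9 libraries all lay above P3D8/BMP9 libraries. Pdia6, a thiol isomerase of the chaperone complexes, went from 3102, 3074 and 3367 to 7548, 7513 and 8160 in P3D8 and from 2107, 1928 and 2289 to 7273, 7953 and 8379 in P3E3. Pdia4 went from 361, 339 and 415 to 969, 1079 and 918 in P3D8 and from 281, 321 and 321 to 1192, 995 and 1658 in P3E3. For both, P3D8 monolayer libraries lay above P3E3 monolayer libraries (not called for Pdia4), while cartilage levels overlapped between the clones. Log2 changes of Pdia6 were 1.28 ± 0.08 (adjusted p = 2.2e-09) in P3D8 and 1.90 ± 0.08 (adjusted p = 2.2e-11) in P3E3, and those of Pdia4 were 1.41 ± 0.15 (adjusted p = 7.2e-07) and 2.02 ± 0.15 (adjusted p = 1.2e-08). Pdia3 overlaps Catsper2, Pdia6 overlaps Atp6v1c2, and Pdia4 holds a microRNA gene, Mir704.

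The tested collagen-folding genes P4hb, P4ha3 and Ppib rose in both clones. P4hb (chr11:120560298-120573253) encodes the beta subunit of prolyl 4-hydroxylase, which is also a disulfide isomerase. It stood at 13106, 13139 and 13074 in P3D8 monolayer and 37578, 37941 and 39938 in P3D8/BMP9, a log2 change of 1.55 ± 0.08, adjusted p = 1.9e-10. In P3E3 it went from 8237, 7729 and 8765 to 42313, 45443 and 49332, a log2 change of 2.47 ± 0.08, adjusted p = 8.4e-13. P3D8 libraries lay above P3E3 libraries in monolayer (adjusted p = 7.0e-06) and below them in cartilage, where the difference was not called (adjusted p = 0.055). P4ha3, an alpha subunit of the same enzyme (chr7:100285489-100319701), was far lower, at 7.18, 9.64 and 5.59 in P3D8 monolayer and 119, 117 and 146 in P3D8/BMP9. In P3E3 monolayer it stood at 0.604, 0.593 and 0.609, which is 1 read in each library, and in P3E3/BMP9 at 68.9, 57.0 and 47.2. P4ha3 was above the filter only through the cartilage groups, so it had to differ to be tested and its changes are given with no p. The 214 reads in P3E3/BMP9 against 3 in P3E3 monolayer gave a ratio of 96.6 after scaling (95% exact interval 32.6 to 472, counting error only). On the log2(normalized count + 1) scale the changes were 3.94 ± 0.24 in P3D8 and 5.18 ± 0.24 in P3E3. The other 21 tested genes had means of at least 10 in both states. Ppib, the ER cyclophilin of the collagen prolyl 3-hydroxylation complex, went from 945, 977 and 931 to 2791, 2943 and 3170 in P3D8 and from 792, 807 and 756 to 3737, 4034 and 4119 in P3E3. Its log2 changes were 1.64 ± 0.07, adjusted p = 3.3e-11 and 2.33 ± 0.07, adjusted p = 4.5e-13. Ppib overlaps Snx22.

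The 6 tested co-chaperones and ER stress factors had log2 changes from 0.29 ± 0.09 (Manf) to 1.73 ± 0.14 (Sdf2l1) in P3D8 and from 0.87 ± 0.10 (Dnajc3) to 3.17 ± 0.14 (Sdf2l1) in P3E3. Sdf2l1, a partner of Dnajb11, went from 117, 105 and 118 to 357, 375 and 399.6 in P3D8 and from 67.0, 53.4 and 78.6 to 535, 689.5 and 583 in P3E3. Dnajb11, a J-protein that binds unfolded chains, went from 130.5, 124 and 122 to 222, 191 and 243 in P3D8 and from 86.9, 91.9 and 74.3 to 316, 314 and 315 in P3E3. In both genes P3D8 was above P3E3 in every monolayer library and below it in every cartilage library. The log2 change of Sdf2l1 was 1.73 ± 0.14, adjusted p = 4.1e-08 in P3D8 and 3.17 ± 0.14, adjusted p = 3.9e-11 in P3E3, and that of Dnajb11 was 0.79 ± 0.12 and 1.89 ± 0.12. Dnajb11 overlaps Gm30505.

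Creld2, an ER-stress-inducible thiol protein, had the same order, with 503, 593 and 533 in P3D8 monolayer, 1304, 1306 and 1282 in P3D8/BMP9, 389, 317 and 407 in P3E3 monolayer and 1622, 2004 and 1890 in P3E3/BMP9. Its log2 change was 1.26 ± 0.10, adjusted p = 5.4e-08 in P3D8 and 2.31 ± 0.10, adjusted p = 5.3e-11 in P3E3. Manf, a stress-induced trophic factor of the ER that can be secreted (chr9:106888753-106891938), had the smallest change of the set in P3D8. It went from 1581, 1753 and 1967 to 2208, 2080 and 2192 in P3D8, 1.23-fold, and from 2084, 1778 and 1768 to 3766, 4396 and 4104 in P3E3, 2.18-fold. The adjusted p of Manf was 0.0096 in P3D8 and 3.9e-08 in P3E3. Dnajb9, a J-protein that represses the Ire1 sensor, went from 1046, 993 and 1221 to 1648, 1519 and 1462 in P3D8 and from 1009, 985 and 1059 to 1871, 1753 and 2028 in P3E3. The log2 changes of Dnajb9 were small, 0.51 ± 0.09, adjusted p = 9.6e-05 and 0.89 ± 0.09, adjusted p = 2.9e-07. Dnajc3, an inhibitor of eIF2 alpha kinases and a J-protein, had log2 changes of 0.95 ± 0.10 in P3D8 and 0.87 ± 0.10 in P3E3, and it overlaps Gm4678.

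At the entry to the ER, Sec61b and Spcs1 behaved unlike each other. Sec61b, a subunit of the translocation channel (chr4:47474661-47483233), went from 883, 966 and 985 to 1187, 1159 and 1341 in P3D8, a log2 change of 0.38 ± 0.10, adjusted p = 0.0038. In P3E3 it went from 410.4, 323 and 405 to 1434, 1572 and 1331, a log2 change of 1.93 ± 0.10, adjusted p = 2.9e-10. The cartilage libraries of the clones overlapped, and P3E3 monolayer was the group that stood apart, below the other groups in every library. Spcs1, a subunit of signal peptidase, rose by 0.78 ± 0.08 in P3D8 and 0.59 ± 0.08 in P3E3, the smallest change of the set in P3E3. Its library values ran from 1827 to 2083 in P3D8 monolayer to 3350 to 3752 in P3E3/BMP9, and it overlaps Glt8d1. At the exit, Mia3, the cargo receptor that loads procollagen into COPII carriers, went from 1519, 1357 and 1521 to 3188, 3203 and 2900 in P3D8 and from 944, 1102 and 1190 to 3257, 3212 and 4279 in P3E3. Its log2 changes were 1.08 ± 0.11, adjusted p = 6.0e-07 and 1.73 ± 0.11, adjusted p = 2.9e-09. Mia3 overlaps Gm34102. Sec13, a subunit of the COPII outer coat and of the nuclear pore, rose by 1.01 ± 0.10 (adjusted p = 5.5e-07) in P3D8 and by 1.28 ± 0.10 (adjusted p = 3.6e-08) in P3E3.

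Levels of different genes can be compared only per length. Per kilobase of transcript (GENCODE vM21 lengths, 21 of 22 genes matched), Calr and P4hb stood highest in P3E3/BMP9, at 14930 to 18280 and 14790 to 17240 normalized counts per kilobase, and their libraries overlapped. Pdia3 followed at 10200 to 12460 and Hsp90b1 at 8123 to 9959, each apart from its neighbours. At the low end Dnajb11 stood at 163.0 to 163.8 and P4ha3 at 19.99 to 29.2. The same 4 genes were the highest per kilobase in each of the 4 groups, with P4hb above Calr in both P3D8 groups by their means.

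The genes that rose more in one clone tended to rise more in the other. Across the 22 genes the 2 changes had a Pearson r of 0.912 and a Spearman rho of 0.867, given as a description, since genes are not independent replicates. The 22 include P4ha3, with large changes in both clones (3.945 and 5.18), which passed the filter only through cartilage. The correlation was not computed without it or over all transcripts, so whether it is particular to these genes was not tested. The changes come from different libraries, and each uses the size factors of the same normalization.

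The second question was whether the clones answered alike. The change in P3D8 was smaller than in P3E3 for 16 of the 22 genes by the test of the difference and larger for 0, where 27.8% of the 5333 transcripts had a smaller change in P3D8, and the median difference was -0.63 against -0.07 over all transcripts. At an unadjusted p under 0.05, 17 were smaller and 0 larger. Without P4ha3, 15 of 21 were smaller. By adjusted p, edgeR called 16 smaller and DESeq2 17, and both called 0 larger. Sec61b (-1.55 ± 0.14, adjusted p = 1.8e-06) and Sdf2l1 (-1.45 ± 0.20, adjusted p = 4.7e-05) had the largest differences on the log2 scale apart from P4ha3. They were followed by Dnajb11 (-1.10 ± 0.17), Creld2 (-1.05 ± 0.15) and P4hb (-0.92 ± 0.11). The difference at P4ha3 was -1.24 ± 0.34 with a pseudocount of 1 but ran from -2.49 with DESeq2 to -0.055 with a pseudocount of 5, where its call was lost, so neither its size nor its rank is settled. The calls on Pdia3, Pdia4 and Dnajb9 were the ones lost with total-read scaling. Those on Pdia4 and Dnajb9 were also lost without a filter on low values, without replicate 3 of P3D8 monolayer and without the 4 libraries described below. Leaving out replicate 1 or replicate 3 of P3D8/BMP9 or replicate 1 of P3E3 monolayer also ended the call on Pdia4, which held in 16 of 24 alternatives, and leaving out replicate 2 of P3E3 monolayer ended that on Pdia3. The 6 genes not called were Calr (-0.31 ± 0.13, adjusted p = 0.063), Sec13 (-0.27 ± 0.15), Kdelr3 (-0.20 ± 0.19), Hsp90b1 (-0.02 ± 0.13), Dnajc3 (0.08 ± 0.13) and Spcs1 (0.19 ± 0.11). A difference that was not called is not shown to be 0. Scaled to total reads, 13 genes had a smaller change in P3D8 and 1, Spcs1, a larger one, while calls over all transcripts went from 999 larger and 1481 smaller to 1484 and 1111.

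The clones differed at both ends of the change. In monolayer, 11 of the 22 genes were higher in P3D8 than in P3E3, where 26.7% of transcripts were, and 1 was lower, Spcs1 (-0.27 ± 0.08, adjusted p = 0.0078), where 23.4% of transcripts were. P4ha3 (2.38 ± 0.24 log2), Sec61b (1.32 ± 0.10), Sdf2l1 (0.78 ± 0.14) and P4hb (0.67 ± 0.08) were furthest above P3E3, and the value of P4ha3 ran from 1.02 to 3.63 over the alternatives. P4ha3 was tested here only through its cartilage level. In a fit on the 6 monolayer libraries alone it did not pass the filter. There 10 of 21 genes were higher and 1 lower, beside 1290 higher and 1233 lower of 4840 transcripts. The call on Spcs1 was lost without the 4 libraries described below, and total-read scaling gave 10 higher and 3 lower (Hsp90b1, Pdia3 and Spcs1). In cartilage the order turned. Of the 22 genes, 12 were lower in P3D8/BMP9 than in P3E3/BMP9, where 27.8% of 5462 transcripts were lower, and 1 was higher, P4ha3 (1.14 ± 0.18, adjusted p = 5.2e-04), where 21.5% were higher. Manf (-0.92 ± 0.08, adjusted p = 1.1e-05), Sdf2l1 (-0.67 ± 0.11, adjusted p = 7.0e-04) and Creb3l1 (-0.59 ± 0.10, adjusted p = 0.0012) were furthest below P3E3. All 3 P3D8/BMP9 libraries lay below all 3 P3E3/BMP9 libraries for 15 of the 22 genes, where 33.0% of transcripts did so. The median over the 22 genes was 0.27 in monolayer and -0.28 in cartilage, beside 0.01 and -0.04 over all transcripts tested.

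**Figure D3:**
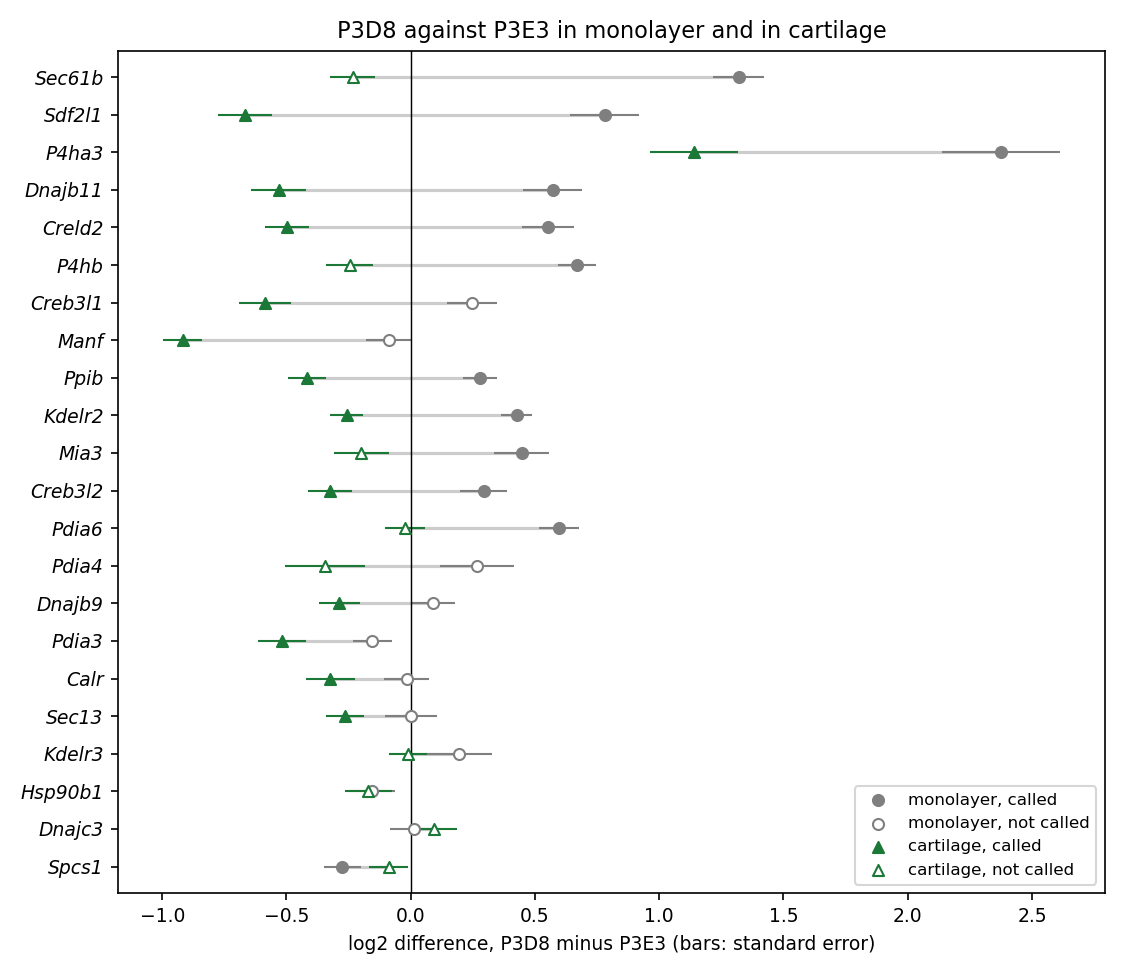
Log2 difference of P3D8 minus P3E3 in monolayer (circles) and in cartilage (triangles), with standard error bars, ordered by the difference between the clones' changes (filled: called; open: not called). Most circles lie right of 0 and most triangles left of it, and P4ha3 stays right of 0 in both.

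For 6 genes the call itself changed side: Creb3l2, Creld2, Dnajb11, Kdelr2, Ppib and Sdf2l1 were higher in P3D8 in monolayer and lower in P3D8 in cartilage. Of these, Creld2, Dnajb11, Ppib and Sdf2l1 kept both calls in every alternative but the grouping by cell line entry described below. With total-read scaling 4 of the 6 remained, without Creb3l2 and Kdelr2. Kdelr2 was also lost without the 4 libraries described next, and Creb3l2 with no filter on low values and without replicate 3 of P3D8 monolayer, replicate 2 of P3D8/BMP9, or replicate 1 or 2 of P3E3 monolayer. A further 6 genes (Calr, Creb3l1, Dnajb9, Manf, Pdia3 and Sec13) were lower in P3D8 in cartilage only by these calls, and 4 (Mia3, P4hb, Pdia6 and Sec61b) were higher in P3D8 in monolayer only. Other settings also added genes that changed side. P4hb did so with edgeR, with DESeq2 and with a mean of at least 50. Without replicate 3 of P3D8/BMP9 the count of genes that changed side reached 9, with Creb3l1, P4hb and Sec61b added. P4ha3 was higher in P3D8 in both states. Dnajc3, Hsp90b1, Kdelr3 and Pdia4 were called in neither. The shares of all transcripts that fell in each of these classes were not computed. Whether the counts are particular to these genes was therefore not tested. In cartilage the count of 12 fell to 8 without replicate 2 of P3D8/BMP9, to 8 with total-read scaling and to 8 without the 4 libraries described next, and rose to 14 without replicate 3 of P3D8/BMP9. Total-read scaling also moved the calls over all transcripts from 1173 higher and 1521 lower to 1444 and 1240 in cartilage, and from 1423 and 1250 to 1185 and 1616 in monolayer.

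Of the 12 libraries, 4, 1 in each group, carry a cell line entry that names the other clone than their title. Libraries were grouped by title. Each of the 4 correlated better with the other libraries of its title group (lowest r 0.985) than with the other clone in the same state (highest r 0.959). Without these libraries all 22 genes were still called higher in cartilage in each clone, and 14 had a smaller change in P3D8. Grouped by the cell line entry instead, 20 genes in P3D8 and 22 in P3E3 were called higher in cartilage. Under that grouping limma called 0 genes in the comparisons between clones, at an adjusted or an unadjusted p under 0.05. By adjusted p it also called 0 of all 5333 transcripts tested (5462 in cartilage), so this 0 is not particular to these genes. Results on the clones thus rest on the titles.

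Other genes of the secretory pathway were taken from lists that hold none of the 37. These lists too were chosen with earlier results of these data known. Beside their counts, 37.5% of the 5333 transcripts tested were called higher in cartilage and 38.8% lower in P3D8. In P3E3 these shares were 41.4% and 38.3%. Among other collagen-modifying enzymes, 8 of 9 tested rose in each clone (median log2 change 2.47 in P3D8 and 3.16 in P3E3). They were led by Lox, which cross-links collagen (6.93 ± 0.43 and 8.27 ± 0.43), and P3h2, a prolyl 3-hydroxylase (4.96 ± 0.14 and 5.68 ± 0.14), while Plod3, a lysyl hydroxylase, fell in P3E3 (-1.41 ± 0.31). Lox (3 entries) and Plod3 (2 entries) were each read from 1 transcript with low levels. Means of Lox were 14.3 and 2.79 in the P3D8 and P3E3 monolayers, and Plod3 fell from 25.5 to 8.93 in P3E3. Lox passed the filter only through cartilage and Plod3 only through monolayer. Of the 7 genes of this list with a mean of at least 10 in both states, 7 rose in each clone. Of all 4429 such transcripts, 31.3% rose in P3D8 and 36.2% in P3E3. Among other COPII and cargo receptor genes, 9 of 10 rose in each clone and 0 fell, led by Sar1a, the COPII GTPase (3.64 ± 0.25 and 3.79 ± 0.25), Sec22b in P3D8 (1.58 ± 0.06) and Yif1a in P3E3 (1.87 ± 0.10). Sar1a has 5 entries, and the one read had means of 3.40 and 2.20 in the P3D8 and P3E3 monolayers. It passed the filter only through cartilage, and of the other 9 genes of this list 8 rose in each clone. Of the COPI and Golgi retrieval genes, 12 of 15 rose and 1 fell in each clone. Copz2, a coat subunit (3.73 ± 0.14 and 4.19 ± 0.14), and the cargo receptor Tmed3 (2.89 ± 0.10 and 4.03 ± 0.10) rose most, and Tmed4 fell (-0.89 ± 0.07 and -0.60 ± 0.07). These lists had medians of 1.02 and 0.73 in P3D8 and 1.38 and 1.32 in P3E3.

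Lists closer to folding were more mixed. Over all transcripts tested, 37.5% were called higher and 38.8% lower in P3D8, and 41.4% and 38.3% in P3E3. Some counts below lie near these shares, and the lists were not tested against them. Of 11 other chaperone and glycoprotein folding genes, 5 rose and 2 fell in P3D8, and 7 rose and 1 fell in P3E3. Without Cdnf, which passed the filter only through cartilage, 4 of 10 rose and 2 fell in P3D8, and 6 rose and 1 fell in P3E3. Cdnf, the paralog of Manf, rose most (2.96 ± 0.23 and 4.52 ± 0.23), with Fkbp11 next in P3D8 (1.73 ± 0.22) and Lman1, a glycoprotein export receptor, in P3E3 (1.90 ± 0.07). Tor1a fell in both (-0.84 ± 0.08 and -0.81 ± 0.08) and Wfs1 in P3D8 (-1.03 ± 0.14). Of 11 other oxidoreductases, 6 rose in each clone, and 3 fell in P3D8 and 2 in P3E3. Vkorc1, the vitamin K epoxide reductase needed for gamma-carboxylation, rose most (4.03 ± 0.10 and 5.41 ± 0.10), followed by Qsox1 in P3D8 (1.62 ± 0.09) and Erp29 in P3E3 (2.20 ± 0.10). Ero1l, which oxidises the disulfide isomerases and is also induced by low oxygen, fell in both clones (-2.40 ± 0.13 and -0.83 ± 0.13), as did Tmx3 (-0.90 ± 0.11 and -1.35 ± 0.11). Of 23 translocon, signal peptidase and oligosaccharyltransferase genes, 12 rose and 5 fell in P3D8, and 15 rose and 4 fell in P3E3. Spcs2 passed the filter only through cartilage and Krtcap2 only through monolayer. Without them, 11 of 21 rose and 4 fell in P3D8, and 14 rose and 3 fell in P3E3. Spcs2 (3.43 ± 0.26 and 4.00 ± 0.26), Ssr1 in P3D8 (1.49 ± 0.14) and Ddost in P3E3 (2.07 ± 0.08) led the rise, and Krtcap2 (-3.07 ± 0.34 and -3.05 ± 0.34), Srp68 in P3D8 (-0.37 ± 0.06) and Srp54a in P3E3 (-1.03 ± 0.28) the fall. Spcs2, Ssr1 and Srp54a have 2 entries each and Krtcap2 has 3. From monolayer to cartilage in P3D8, the mean of Spcs2 went from 5.93 to 71.8 and that of Krtcap2 from 25.3 to 2.32.

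Of 10 other sensors and targets of the unfolded protein response, 8 fell and 2 rose in P3D8 (median -1.09), where 38.8% of all transcripts tested were called lower. In P3E3, 6 fell and 3 rose (median -0.29), where 38.3% of transcripts were called lower. The stress-related genes of the set itself, such as Creb3l1, Creb3l2, Sdf2l1, Creld2, Manf and Dnajb9, rose in both clones, and the lists were not tested against each other. Ern1, which encodes the Ire1 sensor, fell in both clones (-2.69 ± 0.24 and -2.85 ± 0.24). Ppp1r15a, the stress-induced eIF2 alpha phosphatase subunit, and its constitutive relative Ppp1r15b fell in both clones too (-2.23 ± 0.21 and -1.26 ± 0.21 for Ppp1r15a, -0.98 ± 0.09 and -1.54 ± 0.09 for Ppp1r15b). Creb3 rose in both (1.36 ± 0.09 and 1.43 ± 0.09), as did Ddit3, the death-associated factor Chop, from a low level (0.84 ± 0.23 and 0.97 ± 0.23). Chac1, a target of Atf4, fell in P3D8 (-1.22 ± 0.19) and rose in P3E3 (1.03 ± 0.19). Of 12 other ERAD genes, 2 rose and 7 fell in P3D8, and 5 rose and 3 fell in P3E3. Over all transcripts, 37.5% were called higher in P3D8 and 41.4% in P3E3, so the 5 in P3E3 lay near that share. Erlec1 (2.00 ± 0.16 and 2.90 ± 0.16) and Vimp (0.88 ± 0.11 and 1.35 ± 0.11) rose most, and Ube2g2 (-1.67 ± 0.12 and -1.58 ± 0.12) and Herpud2 (-0.65 ± 0.20 and -0.99 ± 0.20) fell most. Erlec1 has 7 entries, Ddit3 has 4 and Herpud2 has 2, so each value is that of 1 transcript. Of 24 secreted matrix genes, 23 rose in each clone, but 15 of the 24, Fmod and Lum among them, passed the filter only through cartilage, so they had to be higher there. Of the 9 with a mean of at least 10 in both states, 8 rose in each clone, where 31.3% of the 4429 such transcripts rose in P3D8 and 36.2% in P3E3. In the other lists Cdnf, Lox, Spcs2 and Sar1a likewise passed only through cartilage, and Plod3 and Krtcap2 only through monolayer. Fmod, from a mean of 1.46 to 174600 normalized counts in P3D8 and from 2.40 to 159800 in P3E3, and Lum, from 0.860 to 31010 and from 0.201 to 52610, rose most. Scaled to total reads, the collagen-modifying, COPII, COPI and matrix lists still had more genes higher than lower in each clone, and the unfolded protein response and ERAD lists more lower than higher (8 lower and 1 higher of 10, and 9 lower and 2 higher of 12, in P3D8). The chaperone and translocon lists then had medians of -0.23 and -0.11 in P3D8, the ERAD list turned from 5 higher and 3 lower to 2 higher and 9 lower in P3E3, and Ddit3 was no longer called in P3D8 (adjusted p = 0.081).

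**Figure D4:**
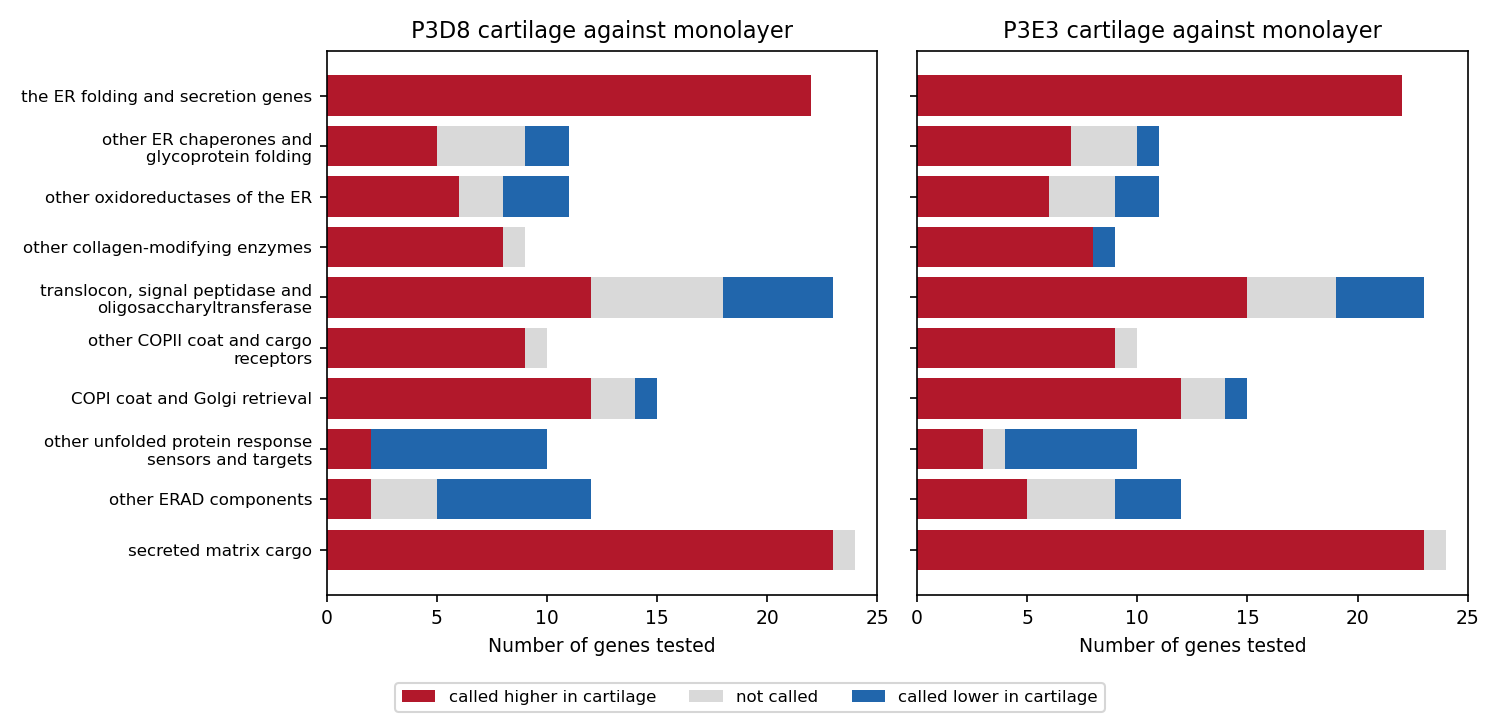
Number of tested genes called higher (red), called lower (blue) or not called (grey) in cartilage against monolayer, for the 22 ER folding and secretion genes and 9 other lists, in P3D8 (left) and P3E3 (right). The set of 22 is red throughout, as nearly is the secreted matrix list (23 of 24, of which 15 genes were tested only through their cartilage level), and the list of other unfolded protein response genes is mostly blue.

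The promoter elements shown above were few among tested genes. Beside the counts below, 37.5% of all transcripts tested were called higher and 38.8% lower in P3D8. In P3E3 these shares were 41.4% and 38.3%. Counts by element were not tested against these shares, and some lie near them. Genes outside the set were read here from their first listed tested transcript, which need not be the most counted one. The ER stress response element was in the promoter of 6 tested genes, of which the 5 in the set rose in both clones. The other one, the ERAD ligase gene Syvn1, was called in neither clone (log2 change 0.44 in P3D8 and -0.06 in P3E3). TGACGTGG was in the promoters of 39 tested genes outside the set, of which 20 rose and 13 fell in P3D8 and 18 rose and 9 fell in P3E3. Of 3 tested genes outside the set with the related element (Krtcap2, Rbm39 and Rcl1), 1 rose and 2 fell in P3D8, and 0 rose and 2 fell in P3E3. Among the 5, the rise ran from 0.95 ± 0.10 (Dnajc3) to 1.91 ± 0.09 (Calr) in P3D8, and genes with no match such as P4hb rose as well. A match is a description of the sequence and not a site shown to be used.

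Markers of cell types were read beside these results, and their part in them was not tested. Of all transcripts tested, 37.5% were called higher in cartilage and 38.8% lower in P3D8, and 41.4% and 38.3% in P3E3. Of the chondrocyte list, 7 of 7 tested rose in each clone, but 6 of them, all but Sox9, passed the filter only through cartilage, so this count was largely fixed by the filter. Its summed level was 724 to 921 normalized counts in monolayers, 4149 to 4311 in P3D8/BMP9 and 7721 to 12122 in P3E3/BMP9, and Sox9 was at least 721 in every library while Col2a1 and Acan, with several entries each, reached at most 94.4 and 53.2. The hypertrophic list summed to 12.8 to 101.8 in monolayers, 4924 to 11528 in P3D8/BMP9 and 3232 to 31645 in P3E3/BMP9, and 5 of 5 tested rose in each clone, of which 4, all but Mmp13, passed the filter only through cartilage. The fibroblast list, with type I and III collagen, summed to 46926 to 87416 in monolayers, 1003800 to 1083100 in P3D8/BMP9 and 520340 to 602460 in P3E3/BMP9. Of its 7 tested genes, 6 rose in each clone and 1 fell in P3E3, with Lum and Thy1 passing the filter only through cartilage and Pdgfra only through monolayer. Cycling genes summed to 3705 to 5480 in monolayers and 1378 to 1554 in cartilage, and 6 of 6 tested fell in P3D8 and 5 of 6 in P3E3. Plasma cell markers, which would come with ER genes, summed to 26.0 to 52.8 in monolayers and 68.6 to 149.1 in cartilage, nearly all from Sdc1, while Jchain, Mzb1 and Cd79a reached at most 2.98, 2.30 and 4.96. Macrophage and leukocyte markers summed to 112.1 to 543.2 in monolayers and 189.3 to 269.0 in cartilage, mostly Cd14, and Ptprc, Adgre1, Csf1r and Aif1 were listed at 0. Of that list 1 of 2 tested rose and 1 fell in P3D8, and 1 rose in P3E3, the rise being that of Lyz2, which passed only through cartilage. The 5 endothelial markers, each with several entries, were listed at 0 in all libraries, and keratinocyte markers summed to at most 7.83. In bulk RNA, more cells of a kind and more RNA per cell cannot be told apart.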

How the data were processed

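Paired-end reads of 100 bases from polyadenylated RNA were aligned to mm10 with HISAT2, counted with HTSeq and normalized with DESeq2, per the labels and the study's methods. Versions, strand setting and annotation are not given in the sources used here. The authors deposited a signal table of normalized counts per RefSeq transcript, and whole reads were recovered from 100% of values within 0.01 reads. A table of the authors' own fold changes and p values was not used. Groups follow sample titles. limma 3.58.1 (R 4.3.3, trend) was fitted on log2(normalized count + 1) over 12 libraries and 4 groups, and over 6 libraries for the lines in cartilage, with Benjamini-Hochberg adjustment over all transcripts and two-sided tests. edgeR 4.0.16 and DESeq2 1.42.0 were run on the recovered reads as alternatives, besides other pseudocounts (0.5 and 5), filters, scalings, summed entries, a replicate block and left-out libraries. Members and lists were chosen with earlier results of these data known. Library values are printed for tested genes among the 8 largest changes in a response, called in the difference of changes, or called with an absolute log2 of at least 1 between the cartilages. Of each other list the 2 called genes with the largest change in each direction are named.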

Additional observations from a re-analysis of the deposited data

Results flagged for a closer look

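For 16 of the 22 tested genes the change from monolayer to cartilage differed between the clones by the test of the difference itself (limma, adjusted p under 0.05), and in each the change was the smaller one in P3D8. The differences, P3D8 minus P3E3 on the log2 scale, are given here with their standard error and no explanation. At entry to the ER, Sec61b differed by -1.55 ± 0.14. Among co-chaperones and stress factors, Sdf2l1 differed by -1.45 ± 0.20, Dnajb11 by -1.10 ± 0.17, Creld2 by -1.05 ± 0.15, Manf by -0.83 ± 0.13 and Dnajb9 by -0.38 ± 0.12. Among collagen-folding genes, P4hb differed by -0.92 ± 0.11 and Ppib by -0.69 ± 0.10. P4ha3, with 3 reads in P3E3 monolayer, differed by -1.24 ± 0.34, but this value ran from -2.49 to -0.055 over the alternatives and was not called with a pseudocount of 5. The disulfide isomerases Pdia6, Pdia4 and Pdia3 differed by -0.62 ± 0.11, -0.61 ± 0.21 and -0.36 ± 0.11. The call on Pdia4 held in 16 of 24 alternatives, that on Dnajb9 in 19 and that on Pdia3 in 21, and all 3 were lost with total-read scaling. The transcription factors Creb3l1 and Creb3l2 differed by -0.83 ± 0.14 and -0.62 ± 0.13, the retrieval receptor Kdelr2 by -0.68 ± 0.09 and the cargo receptor Mia3 by -0.65 ± 0.16. With library titles replaced by the cell line entry, 0 of these differences were called, and 0 of all 5333 transcripts.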

How the results depend on the processing

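Over 25 alternatives, 1095 of the 1098 log2 changes of tested genes from monolayer to cartilage stayed above 0. The 3 that did not came with total-read scaling: Manf (-0.086) and Sec61b (-0.0033) in P3D8 and Spcs1 (-0.013) in P3E3, none of them called. That scaling also called 1 gene with a larger change in P3D8 where the main result had 0, and 3 lower in P3D8 monolayer where it had 1. Without the 4 libraries with a conflicting cell line entry, 0 genes were called lower in P3D8 monolayer. Grouped by that entry, 0 genes were called in the difference of changes (smaller), in monolayer (higher or lower) and in cartilage (higher or lower). The count was also 0 over all transcripts tested in each of these comparisons. Leaving out each library in turn gave 21 to 22 genes higher in P3D8, 22 in P3E3, 14 to 17 with a smaller change in P3D8, 10 to 12 higher and 1 lower in monolayer, and 1 higher and 8 to 14 lower in cartilage, with 0 in the remaining counts. Replicate numbers did not pair the libraries (correlations of same-numbered deviations -0.306 to 0.116), and with a replicate block 22, 22 and 16 genes were called in the responses and their difference, 11 and 1 in monolayer, and 1 and 11 in cartilage. Over all transcripts, calls without a filter on low values were 4082 higher and 2472 lower in P3D8 and 3670 and 2534 in P3E3, against 1999 and 2070, and 2207 and 2041. With a mean of at least 50 they were 1290 and 1699 in P3D8. Genes with few reads limit precision, since P4ha3 in P3E3 monolayer rests on 3 reads.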
